A study of Mus musculus with 4 samples.

Results

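The cells described here are resting alveolar macrophages of allergen-challenged mouse lung, chosen by the measured UMIs of 13 marker genes in 2 single-cell RNA libraries (a UMI, or unique molecular identifier, stands for 1 captured transcript). Barcodes under 200 genes or over 10% mitochondrial UMIs were dropped, and a member then needed a UMI of at least 3 of the 6 genes Ear1, Car4, Krt79, Fabp1, Plet1 and Marco. It also had to have S100a8 and S100a9 together under 2% of its UMIs, no UMI of Cd79a or Cd3e, and at most 1 UMI of Cfb, Cxcl9 and Ly6i summed. The rule took 471 of 8944 kept barcodes in the WT-labelled library and 338 of 10041 in the KO-labelled library, 809 of 18985 in all. Barcodes that met every condition but carried 2 or more UMIs of Cfb, Cxcl9 and Ly6i are called inflamed neighbours below, 506 and 236 barcodes. The genes of the rule are measured values, so their levels are given as a description and support nothing.

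The 2 groups were C57B6/J mice with an intact Plaur gene (WT) and Plaur-/- mice (KO). Both groups had received lipopolysaccharide and ovalbumin on days 0 and 7 to sensitize them, and breathed ovalbumin aerosol on day 14, and no unsensitized or unchallenged group was analysed here. The design names 8 mice per genotype, but each genotype gave 1 RNA library and 1 antibody library, and how many mice went into a library is not stated. On what was sorted the labels disagree, naming circulating CD45.2+ leukocytes in 1 place and a lysate of total lung cells in another. Age, sex and the part of Plaur that is deleted are not given in the sources used here. With 1 library per genotype no difference could be tested between genotypes, and every interval below is a 95% interval of counting error, which holds no spread between mice.

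Alveolar macrophages live on the air side of the alveolus, where they take up surfactant, inhaled particles and dead cells. They arise around birth under the control of the growth factor GM-CSF and of TGF-beta, which maintain the transcription factor PPAR-gamma and through it the lipid-handling genes of these cells. In allergic inflammation they share the lung with recruited monocytes, neutrophils and eosinophils, and a part of them takes on an interferon-driven state with antigen-presentation genes. Plaur encodes uPAR, the surface receptor for urokinase, a protease that turns plasminogen into plasmin. The receptor itself also binds integrins and the matrix protein vitronectin.

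The cell filters dropped 80 barcodes labelled WT and 61 labelled KO, and those kept held 42815121 and 47377589 UMIs. Members held 3357250 and 2100806 UMIs, with medians of 7013 and 6154 UMIs and of 2613 and 2377 genes per cell. The 2 libraries had 16 barcodes in common, none of them a member. The doublet caller Scrublet marked 14 WT-labelled members (2.97%) and 18 KO-labelled members (5.33%) as doublets, and they were kept because the rule does not name them. Where a named gene or list lost its direction or much of its size without them, that value is given too. At least 1 UMI of S100a8 or S100a9, neutrophil transcripts, was found in all but 229 WT-labelled members (48.6%) and 125 KO-labelled members (37.0%).

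The name alveolar macrophage held against genes that the rule did not use. As a list these genes did not separate members from inflamed neighbours, though single ones such as Cidec were higher in members. Of 28 measured, 4 were past 1.5-fold higher in members and none lower in the WT-labelled library. In the KO-labelled library 2 were higher and 1 lower. The identity genes summed to 36115 and 38122 CPM in members and to 36254 and 38803 CPM in inflamed neighbours. Siglecf, the lectin that marks alveolar macrophages among lung macrophages, stood at 110.2 CPM (counts per 1000000 UMIs of the class) in WT-labelled and 90.4 CPM in KO-labelled members. In interstitial macrophages, taken by a set of 6 genes with C1qa, C1qb, C1qc, Pf4 and Ccl12 among them, Siglecf was at 1.05 and 0.773 CPM, and in B cells at 0.345 and 0.455 CPM. Chil3, a chitinase-like protein secreted by alveolar macrophages, was the highest of the identity genes at 12905 and 15517 CPM, against 100.5 and 286 CPM in interstitial macrophages. Ear2, an eosinophil-associated ribonuclease, stood at 1164 and 1307 CPM, and Pparg, the gene of PPAR-gamma, at 379.8 and 465 CPM. Cidec, a lipid droplet protein, stood at 178 and 192 CPM in members, with 0.209 CPM in WT-labelled interstitial macrophages and no UMI in the KO-labelled ones. Mrc1, the mannose receptor, did not separate the macrophages: 1477 and 1828 CPM in members, 1117 and 1861 CPM in interstitial macrophages. Of 28 measured identity genes 12 were higher and 16 lower in KO-labelled members, with a median log2 ratio of -0.023 against -0.027 over all 9662 genes with at least 20 UMIs.

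**Figure D1:**
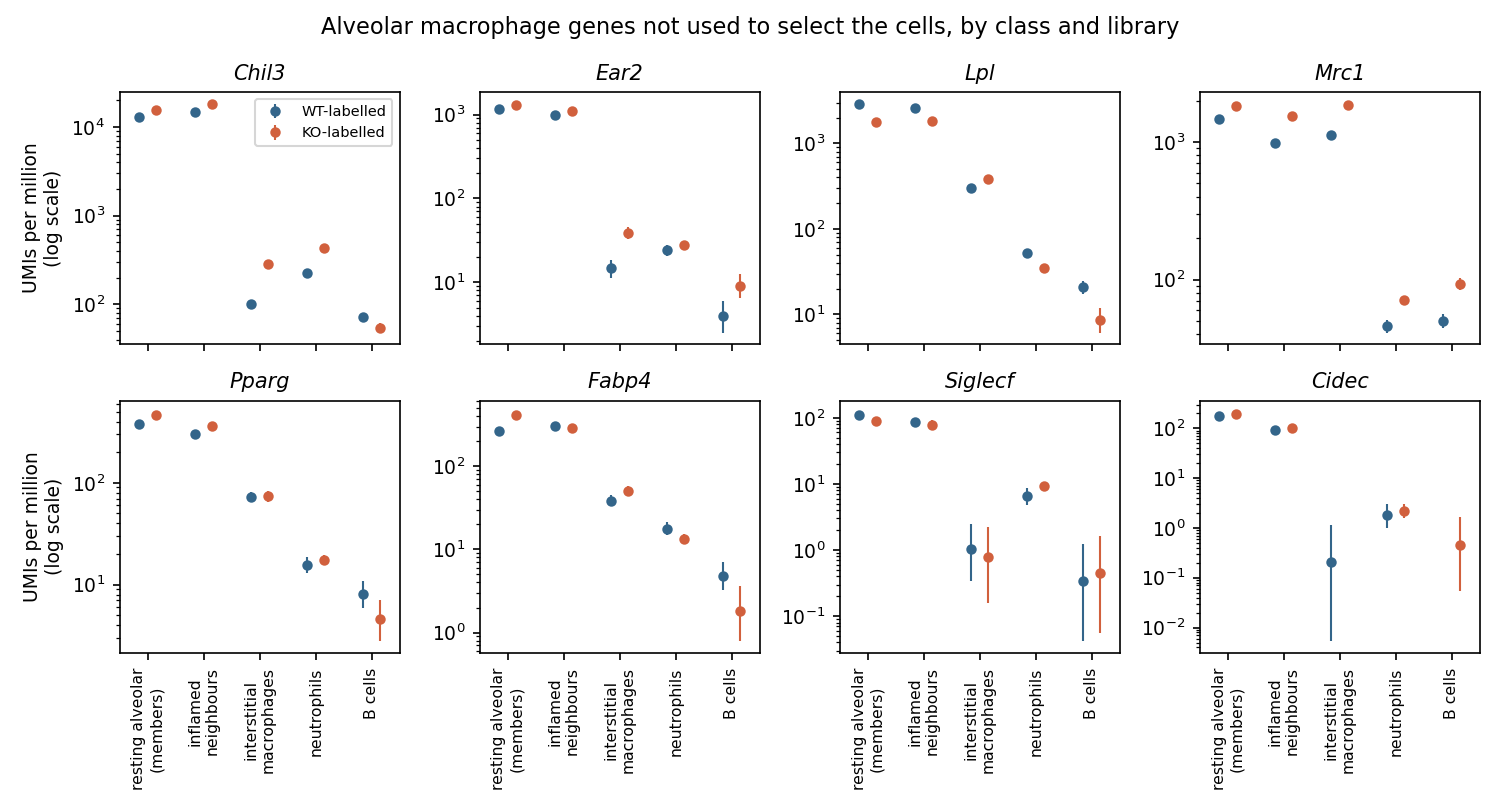
Levels of 8 alveolar macrophage genes that the rule did not use, in CPM on a log axis, for 5 cell classes of the WT-labelled (blue) and KO-labelled (orange) library, each point 1 library with its 95% counting interval. Siglecf lies at 110.2 and 90.4 CPM in members and near 1 CPM or below in interstitial macrophages and B cells, while Mrc1 is as high in interstitial macrophages as in members; a level of 0 (Cidec in KO-labelled interstitial macrophages and WT-labelled B cells) has no point on a log axis.

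The rule's own genes differed in how widely they were found. Plet1, a surface protein of epithelia and alveolar macrophages, had a UMI in 98.5% of WT-labelled and 96.7% of KO-labelled members, and Marco, a scavenger receptor, in 47.3% and 46.7%. Ear1 was found in 86.8% and 82.0% of members, Car4, a carbonic anhydrase, in 86.6% and 87.0%, Krt79, a keratin, in 85.1% and 76.6%, and Fabp1, a fatty acid binding protein, in 69.2% and 71.3%. In B cells, whose median depth was 2428 and 2196 UMIs, each of the 6 was found in at most 0.791% of cells.

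The marker edge of the rule touched few barcodes and its inflamed edge touched many. Just inside the marker threshold, 61 WT-labelled and 60 KO-labelled members carried exactly 3 of the 6 genes. Just outside it, 30 and 37 barcodes carried 2, with Siglecf at 6.49 and 36.5 CPM and Chil3 at 6393 and 9831 CPM. At the inflamed edge, 200 and 134 members had exactly 1 UMI of Cfb, Cxcl9 and Ly6i, and 99 and 77 inflamed neighbours had exactly 2. The inflamed edge moves with depth, since inflamed neighbours were deeper than members, with medians of 8594 and 7521 UMIs. When each barcode was first thinned to 2000 UMIs and the rule applied afterwards, it gave 593 and 369 members and 160 and 74 inflamed neighbours.

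Members made up a smaller share of the KO-labelled library. They were 5.27% (4.81 to 5.75) of kept WT-labelled barcodes and 3.37% (3.02 to 3.74) of kept KO-labelled barcodes, exact Clopper-Pearson intervals, a ratio of 0.639 (0.554 to 0.737). The KO-labelled library held more neutrophils, 3673 against 2278 barcodes, and without them the shares were 7.07% and 5.31%, a ratio of 0.751 (0.651 to 0.866). Inflamed neighbours made up 5.66% and 2.35% of kept barcodes, a ratio of 0.415 (0.354 to 0.486). Among members and inflamed neighbours together, members were therefore the larger part in the KO-labelled library, 58.9% (54.7 to 62.9). In the WT-labelled library they were not, at 48.2% (45.0 to 51.4). The cut between these classes is a fixed UMI count, and KO-labelled cells of both classes had lower median depth. With the rule applied to thinned barcodes, members were the larger part in both libraries. There they numbered 593 against 160 inflamed neighbours in the WT-labelled and 369 against 74 in the KO-labelled library. The part of depth in the contrast was not tested further. A lower share in 1 library cannot be told apart from differences between mice, digestion or sorting.

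Plaur itself, on chr7:24460937-24475970 (mm10), was lower in KO-labelled members but present. It stood at 313 CPM (295 to 333, 1052 UMIs) in WT-labelled and 106 CPM (92.7 to 121, 223 UMIs) in KO-labelled members, a log2 ratio of -1.56 (-1.78 to -1.35). A UMI was found in 78.8% of WT-labelled and 39.6% of KO-labelled members, or in 41.0% and 18.9% when each cell was thinned to 2000 UMIs. Inflamed neighbours showed a similar size, 320.1 and 93.1 CPM, and interstitial macrophages 359 and 84.5 CPM. In B cells Plaur was found in 32.8% and 44.0% of cells, at 199.9 and 249.9 CPM, so the 106 CPM of KO-labelled members lay under the level in B cells of their own library. A 3′ tag can lie outside the deleted part of a gene, so the remaining UMIs check neither the deletion nor the label, and libraries are named by their labels throughout.

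Between the libraries, members differed in a limited set of genes. A gene was called when its ratio passed 1.5-fold and its counting interval excluded no difference, among 7923 genes with at least 50 UMIs in members of both libraries together. KO-labelled members were higher in 210 genes (2.65% of those measured) and lower in 199 (2.51%). The 8 higher genes ranked first were taken at 100 or more UMIs by the interval bound nearest 0, without markers of other cells and similar classes. Of these, 5 were chemokines, and the others were Inhba, S100a6 and Fmnl2. Immediate early, heat shock and antigen-presentation genes were also among the 210. The 8 lower genes ranked the same way were Apoc1, Ccl8, Plaur, Hist1h1b, Colec12, Mki67, Lncpint and Lpl. Counting error is not the only error here, because a few cells can carry most UMIs of a gene. Without doublet calls and, separately, without the 5 cells per library that had most of each gene's UMIs, 99 of the 210 and 135 of the 199 were still called in both checks. Leaving out 5 cells takes 1.06% of WT-labelled and 1.48% of KO-labelled members, so the second check takes more from the KO-labelled side. In it the median over all genes with at least 20 UMIs went from -0.027 to -0.10. There 3076 of 8724 genes were higher, so the second check favours lower calls.

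**Figure D2:**
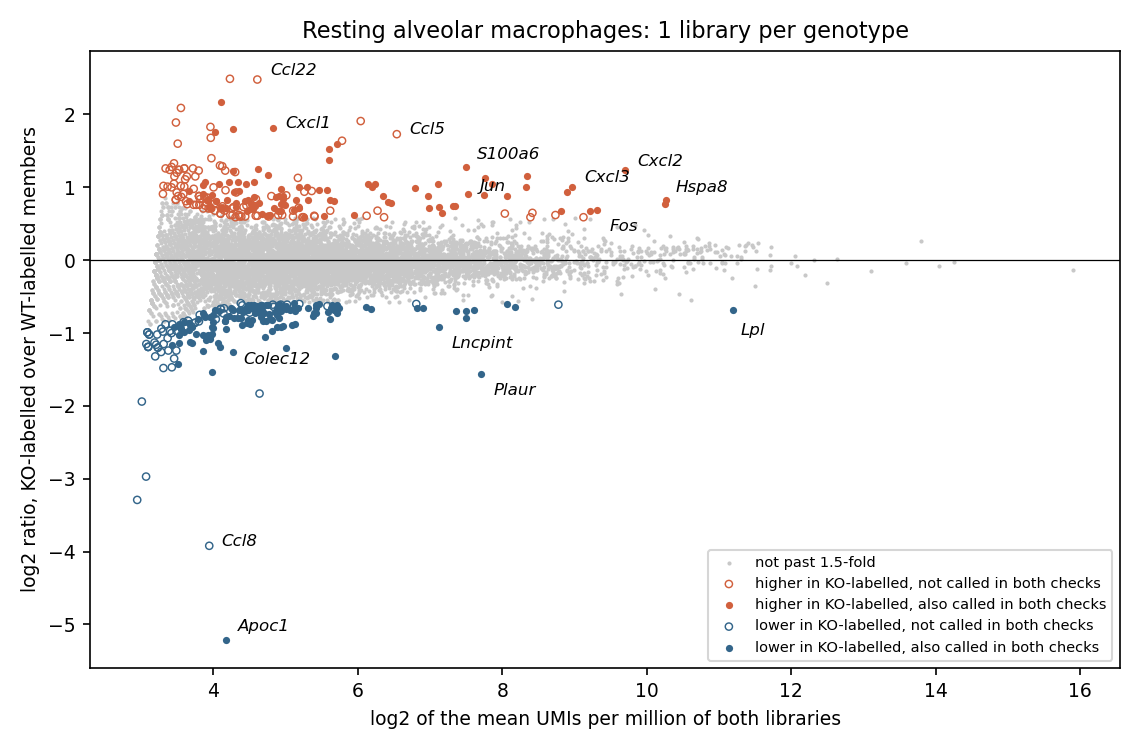
Each point is 1 of 7923 genes in members, with the log2 of its mean level on the x axis and its KO-labelled to WT-labelled log2 ratio on the y axis. Coloured points are the 210 higher and 199 lower genes, filled where they were also called both without doublet calls and without each gene's 5 richest cells (99 and 135); Cxcl2, Jun, Hspa8, Plaur and Lpl are filled, while Ccl22, Ccl5 and Ccl8 are open.

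The neutrophil-attracting CXC chemokines stood apart among the genes that were higher in KO-labelled members. Cxcl2 was at 493 CPM (469 to 517) in WT-labelled and 1165 CPM (1119.6 to 1212) in KO-labelled members, a log2 ratio of 1.24 (1.15 to 1.33). Its UMIs were spread over many cells, 51.0% and 69.5% of members, against 6.07% and 10.3% of B cells. Cxcl3 went with it, at 331 and 667 CPM (log2 ratio 1.01, 0.90 to 1.12), and so did Cxcl1, at 12.5 and 44.3 CPM (log2 ratio 1.82, 1.28 to 2.38), found in only 4.88% and 9.47% of members. All 3 bind the receptor CXCR2 on neutrophils, and all 3 were also called in both checks. The size of the Cxcl2 difference was not the same in other classes of the same libraries: 1217 and 1881 CPM in inflamed neighbours, 1026 and 1283 CPM in interstitial macrophages, 159 and 288 CPM in B cells, and 5523 and 5446 CPM in neutrophils. Neutrophils, the class with most Cxcl2, made up 25.5% and 36.6% of kept barcodes. Among members with no S100a8 or S100a9 UMI the log2 ratio of Cxcl2 was 0.82 and that of Cxcl1 was 2.36. Of the CC chemokines, Ccl3, a ligand of CCR1, stood at 119 and 201 CPM (log2 ratio 0.75), and Ccl6, the most abundant chemokine of these cells, at 4143 and 4325 CPM (0.062).

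Over the whole chemokine list 16 of 20 measured genes were higher, 10 of them and 3 lower ones past 1.5-fold with an interval that excluded no difference, and the median log2 ratio was 0.61. Without doublet calls 13 of 20 were higher and the median was 0.36. Over all genes with at least 20 UMIs, 287 of 9662 were past 1.5-fold higher and 261 lower. That share is the background for each list count between the libraries given below. Several of the listed chemokines rested on a handful of cells. Ccl22, a ligand of CCR4, had 25 UMIs in WT-labelled and 87 in KO-labelled members, but 78 of the 87 lay in 2 cells called doublets, which also held 99 and 55 UMIs of Ccl17 and 21 and 3 UMIs of Ccr7, genes of migratory dendritic cells. Without doublet calls the log2 ratio of Ccl22 turned from 2.48 to -0.48, and that of Ccl17, the other CCR4 ligand, went from 1.91 to 0.47. Ccl5 had 145 and 301 UMIs, of which 123 and 291 sat in 4 and 3 cells that each carried the granzyme transcript Gzma of killer lymphocytes. Its log2 ratio of 1.73 turned to -0.84 without each library's 5 richest cells. Ccl8 went the other way, 97 against 4 UMIs, with 93 of the 97 in 2 cells that also held C1qa and Pf4, genes of interstitial macrophages. What these cells are was not tested.

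Cxcl1, Cxcl2 and Cxcl3 shared a short promoter motif with other NF-kB target genes. The NF-kB element GGAATTTCC, a binding sequence of NF-kB dimers, was searched on both strands in the 300 bases from 250 before to 50 after each gene's start in the RefSeq promoters of GRCm38.p6 (mm10). It was present in 87 of 27025 promoters (0.322%), in 30 of the 6428 promoters of genes measured in members (0.467%), in 7 of 160 promoters of genes higher in KO-labelled members (4.38%), and in 0 of 157 promoters of lower genes. The 7 genes are Cxcl1, Cxcl2, Cxcl3, Cxcl10, Ier3, Nfkbia and Tnfaip3, and the motif and its length were chosen with their values known. The 3 CXCR2 ligands and the NF-kB inhibitor Nfkbia are shown to let the shared stretch be seen, with the match in capitals, 5′ to 3′ on the strand of the gene; in Nfkbia the motif lies on the strand opposite to the one printed.
Cxcl1, chr5:90891150-90891208, + strand: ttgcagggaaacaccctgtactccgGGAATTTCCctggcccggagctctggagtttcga
Cxcl2, chr5:90903778-90903836, + strand: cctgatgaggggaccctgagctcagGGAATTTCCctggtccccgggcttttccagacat
Cxcl3, chr5:90786004-90786062, + strand: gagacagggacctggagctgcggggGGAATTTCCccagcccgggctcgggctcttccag
Nfkbia, chr12:55492643-55492701, - strand: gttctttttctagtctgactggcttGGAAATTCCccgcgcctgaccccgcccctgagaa
The match began 70, 96, 72 and 29 bases before the start of Cxcl1, Cxcl2, Cxcl3 and Nfkbia. Cxcl1, Cxcl2 and Cxcl3 are neighbouring members of 1 gene family, and a match is a description of letters, not a bound site or a cause.

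Nfkbia, the NF-kB inhibitor that NF-kB itself induces, stood at 268 and 403 CPM, a log2 ratio of 0.59 (0.45 to 0.73). Of 32 measured genes of NF-kB signalling and inflammatory cytokines 26 were higher in KO-labelled members, with a median log2 ratio of 0.13, and 7 were past 1.5-fold, none lower. The median was 0.050 (20 of 30 higher) without each gene's 5 richest cells, where that over all genes was -0.10. The list's median was 0.083 (16 of 28) among members with no S100a8 or S100a9 UMI. The feedback genes Tnfaip3, a ubiquitin-editing enzyme, and Socs3, a cytokine signalling inhibitor, were among the 7, at 122 and 204 CPM (log2 ratio 0.75) and at 57.5 and 106 CPM (0.88). Of the cytokine genes, Tnf was near no difference, at 63.4 and 62.4 CPM (-0.025, -0.35 to 0.30). Il1b was higher, at 388 and 549 CPM (0.50, 0.39 to 0.62), but under the fold used here. The other 5 were Nfkbia, Nfkbiz, Cd40, Marcksl1 and Traf1, the last 3 with at most 35 UMIs in either library. Nfkbia was not called in both checks.

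Immediate early genes, which cells switch on within minutes of a stimulus, were higher in KO-labelled members in 26 of 37 measured cases. Of these, 10 were past 1.5-fold higher and 1 lower, and the median log2 ratio was 0.32. Jun, a subunit of the transcription factor AP-1, stood at 214 and 429 CPM (log2 ratio 1.01, 0.86 to 1.15), and its partners Fos at 488 and 789 CPM (0.69, 0.59 to 0.79) and Fosb at 90.6 and 186 CPM (1.04, 0.82 to 1.26). Dusp1, a phosphatase that ends MAP kinase signalling, stood at 326 and 623 CPM (0.93), and Klf2, a quiescence-linked transcription factor, at 73.9 and 147 CPM (0.99). The Egr and Nr4a genes of the same list did not pass: Egr1 was at 105 and 134 CPM (0.36), and Nr4a1 had 83 and 42 UMIs (-0.31). The difference in Jun was spread over cells: at 2000 UMIs per cell 30.5% of WT-labelled and 48.1% of KO-labelled members held a Jun UMI. The list's median stayed at 0.33 without doublet calls, 0.28 without each gene's 5 richest cells and 0.26 among members with no S100a8 or S100a9 UMI. In the same libraries it was 0.42 in inflamed neighbours, 0.15 in interstitial macrophages, 0.096 in B cells and -0.38 in neutrophils. Tissue digestion also switches on these genes, and its part in the result was not tested.

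Chaperone genes were higher as well. Hspa8, the constitutive heat shock protein that folds nascent chains and uncoats vesicles, stood at 888 CPM in WT-labelled and 1566 CPM in KO-labelled members, a log2 ratio of 0.82 (0.75 to 0.89). At 2000 UMIs per cell it was found in 76.5% and 92.8% of members, with a median of 1 and 3 UMIs. Hspa5, the chaperone of the endoplasmic reticulum, stood at 455 and 731 CPM (0.68), and Hsph1, a co-chaperone, at 28.6 and 50.9 CPM (0.83). Of 18 measured chaperones 15 were higher, 3 past 1.5-fold, with a median log2 ratio of 0.28. The list's median in other classes of the same libraries was 0.46 in inflamed neighbours, 0.53 in interstitial macrophages, 0.55 in neutrophils and 0.26 in B cells.

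**Figure D3:**
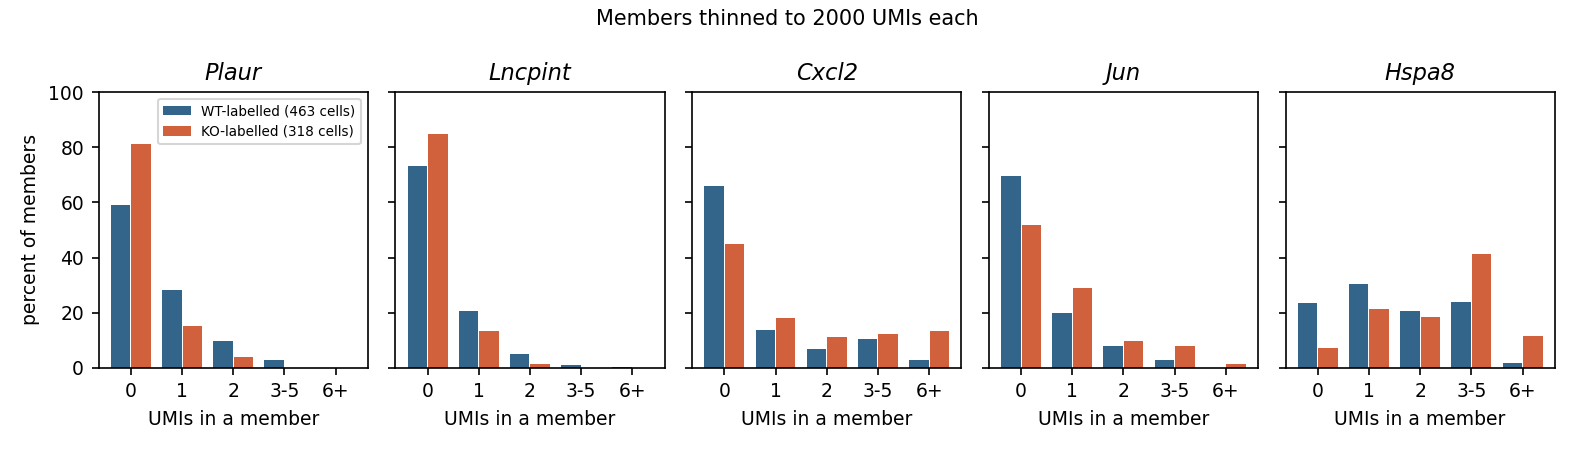
Share of members (y axis, percent of cells) by the number of UMIs of Plaur, Lncpint, Cxcl2, Jun and Hspa8 in a member. Every cell was first thinned to 2000 UMIs, which left 463 WT-labelled and 318 KO-labelled members. For Hspa8 the share of cells with no UMI is 23.5% in WT-labelled and 7.23% in KO-labelled members. For Cxcl2 it is 66.1% and 45.0%, and for Plaur 59.0% and 81.1%.

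Antigen-presentation genes were higher in KO-labelled members at the level of MHC class II. Cd74, the invariant chain that guides class II molecules, stood at 899 and 1536 CPM (log2 ratio 0.77, 0.70 to 0.85) and H2-Ab1, a class II beta chain, at 337 and 516 CPM (0.62, 0.50 to 0.74). H2-Aa and H2-Eb1 fell short of 1.5-fold, at 0.56 and 0.53. Of 12 measured genes 10 were higher, 3 of them past 1.5-fold, with a median of 0.41. The median was 0.33 without doublet calls and 0.21 without each gene's 5 richest cells, where that over all genes was -0.10. Cd74 varied strongly from cell to cell: at 2000 UMIs per cell 62.0% of WT-labelled and 46.9% of KO-labelled members had none, while 9.50% and 14.2% had 6 or more. Genes of the interferon-gamma response and of MHC class I were near no difference, with 21 of 34 higher, 2 past 1.5-fold and a median of 0.064. Of the type I interferon genes 20 of 33 were higher and 8 past 1.5-fold, among them Isg15, a ubiquitin-like modifier, at 10.7 and 25.2 CPM, and Slfn4, a Schlafen protein of myeloid cells, at 6.85 and 24.3 CPM. That list's median of 0.33 did not hold its size: 0.18 without doublet calls and 0.046 among members with no S100a8 or S100a9 UMI. Without each gene's 5 richest cells the list's median was 0.096, where that over all genes was -0.10.

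Lipid handling as a whole was near no difference, while single genes of it differed. Of 39 measured genes 16 were higher and 23 lower in KO-labelled members, 2 and 3 past 1.5-fold, with a median log2 ratio of -0.046. Lpl, lipoprotein lipase, the secreted enzyme that frees fatty acids from lipoproteins, stood at 2873 CPM (2816 to 2931) in WT-labelled and 1797 CPM (1741 to 1856) in KO-labelled members, a log2 ratio of -0.68 (-0.73 to -0.62). Nearly every member had it, 99.6% and 99.4%, and the mean per cell at 2000 UMIs was 5.74 and 3.78 UMIs. Inflamed neighbours had 2586 and 1828 CPM, and interstitial macrophages, at 302 and 388 CPM, differed the other way. Fabp4, a fatty acid binding protein induced by PPAR-gamma, was higher in KO-labelled members, 266 and 418 CPM (0.65, 0.52 to 0.79), with 305 and 285 CPM in inflamed neighbours. It was not called in both checks, and a single KO-labelled cell held 80 of its 879 UMIs. Ch25h, the enzyme that makes 25-hydroxycholesterol, was higher too, 188 and 347 CPM (0.88). Mylip, the ligase that degrades the LDL receptor, was lower, 52.7 and 30.9 CPM (-0.77). Fatty acid transport and oxidation genes such as Cd36 (238 and 231 CPM), Cpt1a (134 and 108 CPM) and Acadl (63.7 and 67.1 CPM) did not pass.

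Apoc1, an apolipoprotein that inhibits lipoprotein lipase and cholesteryl ester transfer, had the lowest ratio of all named genes. WT-labelled members held 118 UMIs in 44 cells (35.1 CPM) and KO-labelled members 2 UMIs in 1 cell (0.952 CPM), a log2 ratio of -5.21 (-8.27 to -3.32). Inflamed neighbours showed the same direction, 27.3 and 3.75 CPM. Apoc1 lies on chr7:19689480-19692659, 4.77 Mb from Plaur. Its neighbour Apoe, 4.76 Mb from Plaur, stood at 144 and 123 CPM (-0.23) in members but at 227 and 63.7 CPM (-1.83) in inflamed neighbours. The 167 measured genes within 10 Mb of Plaur as a group had a median of -0.0042, with 10 past 1.5-fold in each direction, Plaur among the lower ones. Over all 9662 measured genes the median was -0.027, with 287 past 1.5-fold higher and 261 lower, a smaller share each way. Irgc1, an immunity-related GTPase gene 0.0153 Mb from Plaur, had 21 and 59 UMIs (6.26 and 28.1 CPM, 2.17, 1.43 to 2.96). Whether sequence around the altered locus differs between the strains was not tested.

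Other macrophage functions were close between the libraries. None of 34 lysosome genes was past 1.5-fold, and their median log2 ratio was -0.038: Ctsd, a lysosomal protease, stood at 3077 and 2824 CPM and Lamp1, a lysosome membrane protein, at 707 and 743 CPM. Of 20 measured genes of the GM-CSF and TGF-beta axis that maintains these cells none passed either, with a median of -0.063. Over all 9662 measured genes only 287 were past 1.5-fold higher and 261 lower, so none in lists this short is near that background. Of 24 scavenging and efferocytosis receptors 3 were lower past 1.5-fold and none higher. Colec12, a collectin scavenger receptor, was the clearest of them at 73.3 and 29.5 CPM (-1.31, -1.74 to -0.90), with 80.5 and 34.8 CPM in inflamed neighbours, but a single WT-labelled cell held 52 of its 246 UMIs, and among members with no S100a8 or S100a9 UMI the ratio was -0.42. The efferocytosis receptors Mertk (617 and 552 CPM) and Axl (383 and 325 CPM) did not pass. Of 24 oxidative stress genes 16 were lower, 3 past 1.5-fold: Srxn1, sulfiredoxin, at 27.4 and 11.4 CPM (-1.26), Blvrb, biliverdin reductase, at 139 and 87.6 CPM (-0.66), and Cat, catalase, at 84.6 and 54.3 CPM (-0.64). Blvrb lies 2.97 Mb from Plaur.

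In the plasminogen system around the deleted receptor, the genes whose products bind plasminogen were close between the libraries. Plau, the gene of urokinase, had 19 and 12 UMIs only, 5.66 and 5.71 CPM. The plasminogen-binding genes S100a10 (1143 and 1149 CPM), Anxa2 (1331 and 1254 CPM) and Plgrkt (178 and 159.9 CPM), and Lrp1, the endocytic receptor that clears urokinase complexes (445 and 414 CPM), did not pass. Of 21 measured genes 6 were past 1.5-fold higher and 1 lower, Plaur itself, with a median of 0.0072. Among the higher ones, the proteases Mmp8, Mmp9 and Mmp12, the integrin gene Itgam and the metalloprotease inhibitor Timp1 were low in counts, from 11 and 19 UMIs for Timp1 to 44 and 58 UMIs for Mmp8.

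Among further genes, Inhba, the activin A subunit, had 84 and 151 UMIs (log2 ratio 1.52, 1.13 to 1.92). Fmnl2, a formin of the actin skeleton, stood at 26.8 and 70.0 CPM (1.38, 1.00 to 1.78), and Rgs1, a regulator of chemokine receptor signalling, at 136 and 299 CPM (1.13, 0.96 to 1.31). Inhba and Rgs1 kept their size among members with no S100a8 or S100a9 UMI, at 1.69 and 1.12, while Fmnl2 went to 0.92. In inflamed neighbours Fmnl2 stood at 159 and 157 CPM (-0.022, -0.22 to 0.18) and Inhba at 225 and 260.1 CPM (0.21, 0.053 to 0.37). Cdh1, E-cadherin, by which alveolar macrophages can bind epithelium, stood at 46.2 and 95.7 CPM (1.05, 0.74 to 1.36). S100a6, a calcium-binding protein, stood at 106 and 257 CPM (1.28, 1.09 to 1.48). Neutrophils held 4168 and 5002 CPM of it, but among members with no S100a8 or S100a9 UMI its log2 ratio was 1.35. Lncpint, a long non-coding RNA induced by p53, was lower, with 612 and 203 UMIs (182 and 96.6 CPM, -0.92, -1.15 to -0.68) in 61.8% and 38.5% of members.

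Transcripts of other cell types were present at low levels and differed between the libraries. Of 14 measured neutrophil genes 12 were higher in KO-labelled members, 9 past 1.5-fold, with a median log2 ratio of 0.99. The median was 0.64 (10 of 14) without doublet calls and 0.19 (3 of 6) among members with no S100a8 or S100a9 UMI. Their summed level was 1578 and 2103 CPM against 88284 and 94817 CPM in neutrophils. The same list was at 1134 and 1684 CPM in B cells, with a median of 0.52. Il1r2 and G0s2, neutrophil-rich genes with ratios of 1.01 and 1.59, went to -1.09 and -0.28 among members with no S100a8 or S100a9 UMI. T and NK cell genes summed to 76.0 and 157 CPM (7 of 18 measured), interstitial macrophage genes to 330 and 373 CPM (13 of 17), and B cell genes to 91.4 CPM in both (3 of 14). Cd79a and Cd3e are at 0 by the rule. The interstitial list's median of 0.75 was -0.66 without doublet calls. The part of free RNA and doublets in the differences above was not tested beyond the checks given with each.

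**Figure D4:**
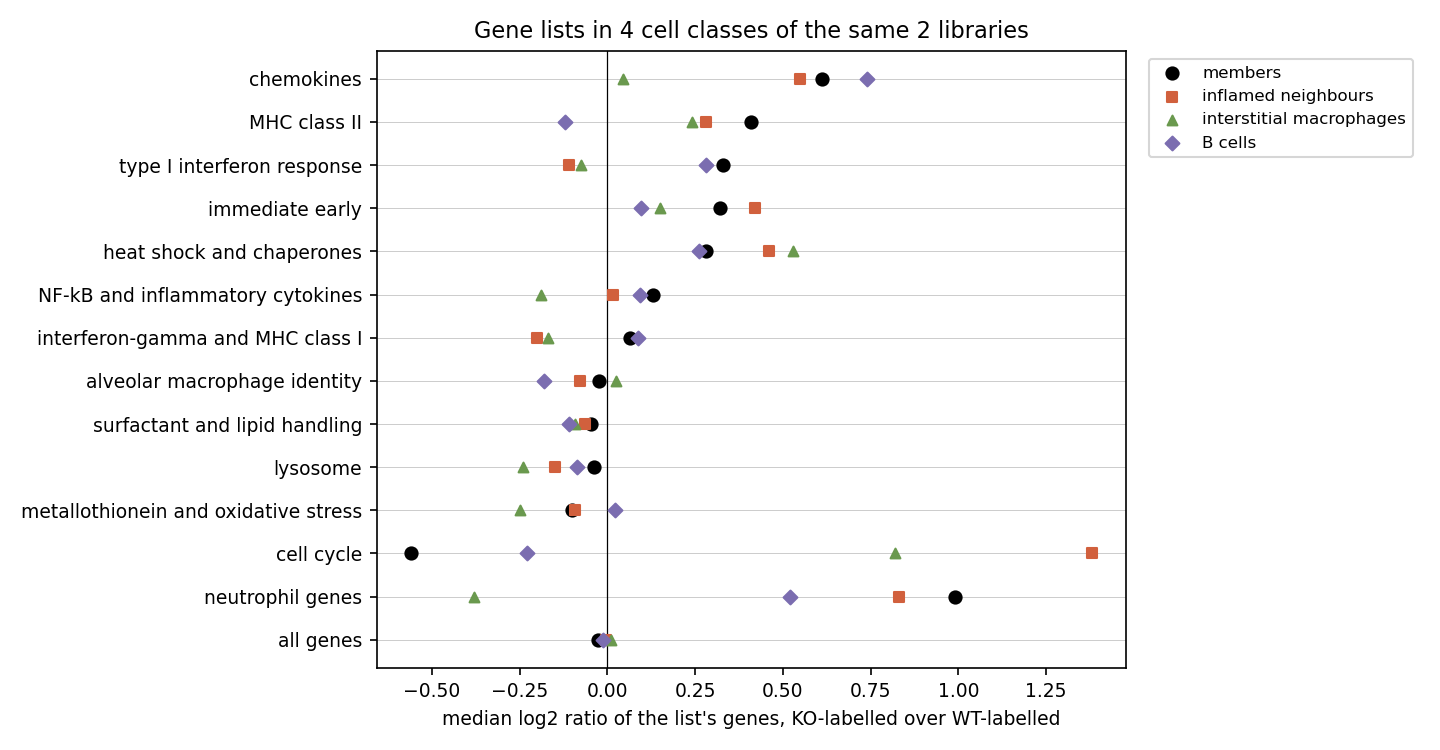
Median KO-labelled to WT-labelled log2 ratio (x axis) for 13 gene lists and all genes (y axis) in members, inflamed neighbours, interstitial macrophages and B cells, each symbol 1 class of the same 2 libraries. In members the chemokine list lies at 0.61, MHC class II at 0.41 and immediate early genes at 0.32, while identity, lipid and lysosome lists lie within 0.05 of 0; the cell cycle list is at -0.56 in members and 1.38 in inflamed neighbours.

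Cell division genes were lower in KO-labelled members in 25 of 29 measured cases, 9 past 1.5-fold, with a median of -0.56. Mki67, a proliferation marker, had 151 and 41 UMIs (45.0 and 19.5 CPM), and Hist1h1b, a replication-dependent histone, 131 and 23. These UMIs lay in few cells: 96 of the 151 and 104 of the 131 were in the 5 richest WT-labelled cells of each gene. Cells with at least 3 of 10 division genes were 13 of 471 WT-labelled (2.76%, 1.48 to 4.67) and 7 of 338 KO-labelled members (2.07%, 0.837 to 4.22), intervals that overlap. Without each gene's 5 richest cells the list's median was -0.17, against -0.10 over all genes. With cells thinned to 2000 UMIs the list's median was 0.079. In inflamed neighbours the list was higher in the KO-labelled library, with a median of 1.38, where dividing cells were 9 of 506 (1.78%) and 8 of 236 (3.39%).

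Of the 210 genes higher in KO-labelled members 79 were also called higher in inflamed neighbours, 37.6% of the members' calls and 28.1% of the neighbours' 281 (3.47% of their measured genes). Of the 199 lower genes 18 were shared, 9.05% and 9.73% of each side's calls, where 2.28% of the neighbours' measured genes were called lower. In interstitial macrophages 26 of 194 measured higher genes and 19 of 168 lower genes were called the same way, against 4.10% and 4.13% of all genes measured there. In B cells 43 of 192 and 3 of 163 were, against 3.29% and 2.22%, so the 3 lower genes are near the background. All of these classes come from the same 2 libraries, so they share what differed between those libraries.

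Within each library, members differed from inflamed neighbours most in interferon-induced and antigen-presentation genes. A gene was called here when it passed 1.5-fold the same way in both libraries, each interval excluding no difference, among 7117 genes. Members were higher in 139 (1.95%) and lower in 192 (2.70%), counts that include rule genes, since Cfb, Cxcl9 and Ly6i set the classes. Those 3 genes are induced by interferon, so lower interferon genes in members are close to the rule and are a description. Iigp1, an interferon-induced GTPase, stood at 5.06 CPM in WT-labelled members against 121 in inflamed neighbours, and at 5.71 against 103 in the KO-labelled library. Gbp2, a guanylate-binding protein, stood at 31.3 against 308 and at 27.6 against 255 CPM, and Cxcl10, a ligand of CXCR3, at 12.2 against 190.5 and at 23.8 against 211 CPM. Calhm6, a channel protein, Gbp5, H2-M2, Serpina3g and the long RNA AW112010 completed the lowest 8. The interferon-gamma list had medians of -1.37 and -1.08 and MHC class II of -1.49 and -1.15, against 0.12 and 0.075 over all genes. NF-kB genes were lower as well, with medians of -0.91 and -0.61. Cxcl2, which was higher in KO-labelled members, was lower in members than in neighbours in both libraries, by log2 ratios of -1.31 and -0.69.

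What members had more of was less close to the rule. Tc2n, a C2-domain protein, stood at 50.6 against 19.0 CPM in the WT-labelled and 39.5 against 13.4 CPM in the KO-labelled library. Lepr, the leptin receptor, stood at 168 against 66.3 and 148 against 77.1 CPM, and Tsc22d3, the glucocorticoid-induced leucine zipper, at 70.0 against 32.8 and 83.8 against 37.5 CPM. Patj, a polarity scaffold, Dhrs3, a retinal reductase, Perp, a junction protein, Fosb and Slc9a9, an endosomal sodium-proton exchanger, were the other highest genes. Lipid genes were among the 139: Cidec (log2 ratios 0.95 and 0.90), Cd36, a fatty acid transporter (1.00 and 0.86), Abcg1, a cholesterol exporter (0.60 and 0.65), and Cpt1a, which admits fatty acids to mitochondria (0.84 and 0.67). So were the immediate early genes Fos (0.76 and 0.69), Jun (1.03 and 0.76) and Egr1 (1.01 and 0.62). The scale matters for this side: TMM factors moved the median of all genes by -0.137 and -0.062 on the log2 scale, after which 81 genes were higher, and DESeq2 size factors left 82. The split of the calls thus shifted toward lower genes, and the members' higher genes stand relative to that shift.

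**Figure D5:**
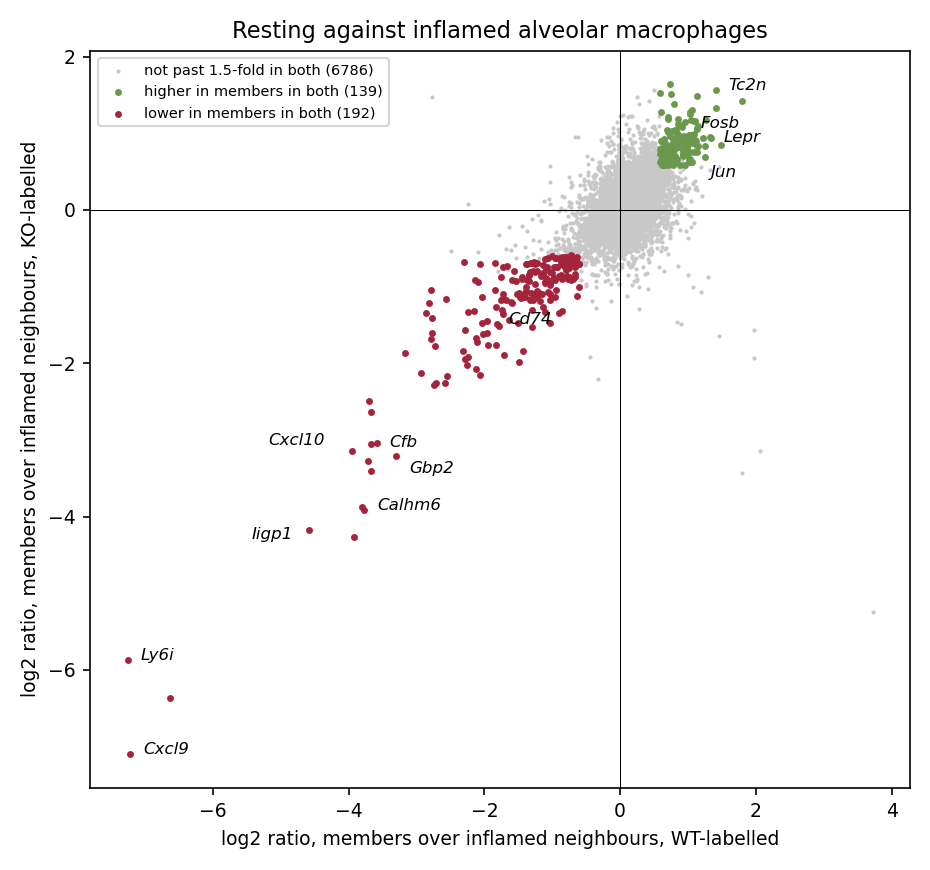
Log2 ratio of members over inflamed neighbours in the WT-labelled (x axis) and the KO-labelled library (y axis), each point 1 of 7117 genes. The 139 higher genes (green; Tc2n, Lepr, Fosb, Jun) and the 192 lower genes (red; Iigp1, Gbp2, Cxcl10, Cd74) lie near the diagonal, and Cxcl9, Ly6i and Cfb, which set the classes, are among the lowest.

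An interferon motif was found in a larger share of promoters among the lower genes than among all measured genes. The interferon-stimulated element GAAANNGAA, part of the sequence bound by interferon regulatory factors, was searched on both strands in the same 300 bases. It was found in 2317 of 27025 promoters (8.57%), 450 of 5762 promoters of genes measured in this comparison (7.81%), 34 of 150 promoters of genes lower in members (22.7%), and 8 of 117 of higher genes (6.84%). These shares are a description, with a motif chosen after the genes were known. The classes were split on interferon-induced genes, and Cxcl9, a gene of the rule, is among the 34. The stretches of Gbp2, Gbp5 and Cxcl10, among the 8 lowest genes, are shown with the match in capitals; in Gbp2 and Gbp5 the motif lies on the strand opposite to the one printed.
Gbp2, chr3:142620580-142620638, + strand: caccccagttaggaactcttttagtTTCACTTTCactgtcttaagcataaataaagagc
Gbp5, chr3:142496745-142496803, + strand: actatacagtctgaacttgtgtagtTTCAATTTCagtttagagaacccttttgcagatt
Cxcl10, chr5:92349069-92349127, - strand: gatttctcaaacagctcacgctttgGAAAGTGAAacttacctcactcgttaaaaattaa
The match began 58, 164 and 213 bases before the start of Gbp2, Gbp5 and Cxcl10.

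Across the line between members and inflamed neighbours, interferon-gamma genes took a larger share of UMIs at each step. The steps are counts of Cfb, Cxcl9 and Ly6i, interferon-induced genes of the rule, so this rise is close to the rule and is a description. In the WT-labelled library interferon-gamma genes made up 0.582% of UMIs in cells with no UMI of Cfb, Cxcl9 and Ly6i, 0.676% at 1 UMI, 0.826% at 2, 0.953% at 3 to 9 and 1.87% at 10 or more. The KO-labelled library ran from 0.599% over 0.702%, 0.773% and 0.932% to 1.74%. Identity genes took 3.63% and 3.69% of UMIs at 0, 3.78% and 4.10% at 3 to 9, and 3.30% and 3.18% at 10 or more, with their lowest share in the last class. Immediate early genes went the other way, from 0.605% to 0.478% in the WT-labelled and from 0.832% to 0.631% in the KO-labelled library. Median depth was 6745 and 5878 UMIs in the first of these classes and 9419 and 7458 in the last, so depth moved with the classes and its part was not tested.

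At the surface, mean antibody counts of members lay near those of B cells of the same library, apart from CD11b in the KO-labelled library. The antibodies were read by DNA tags of 15 bases, printed here because each count rests on matching its tag.
CD11b: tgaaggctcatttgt
CD14: aaccaacagtcacgt
CCR3: tagaaccgtatccgt
Ly-6C: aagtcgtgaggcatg
ST2: gcgatggagcatgtt
CD11b, the integrin that marks recruited myeloid cells and is low on alveolar macrophages, had a mean of 13.1 UMIs per WT-labelled and 16.7 per KO-labelled member. B cells had 12.8 and 11.8, and interstitial macrophages 129.7 and 72.2. Its RNA, Itgam, had 33 and 38 UMIs in members (9.83 and 18.1 CPM). It was found in 4.67% of WT-labelled members and 5.38% of B cells, and in the KO-labelled library in 7.1% of members and 6.25% of B cells. Relative to B cells the KO-labelled minus WT-labelled difference for CD11b was 0.48 on the log2 scale (0.42 to 0.54), but by medians, 6 and 7 UMIs per member, it was -0.100. Ly-6C counts were higher in the KO-labelled library, with 10 and 17 UMIs in the median member, and relative to B cells members stood at 0.11 and 0.061 on the log2 scale, a difference of -0.047 (-0.10 to 0.010). CD14, the lipopolysaccharide co-receptor, stood at 3.64 and 2.85 UMIs, CCR3, the eotaxin receptor of eosinophils, at 1.25 and 1.17, and ST2, the IL-33 receptor, at 0.722 and 0.831, all near the level on B cells. Cd14 RNA was found in 44.4% and 46.4% of members, against 3.38% and 5.70% of B cells. Neutrophils held Cd14 RNA in 66.7% and 70.2% of cells, yet their CD14 antibody means were only 3.55 and 2.97 UMIs. B cells had 3.11 and 2.57, so a CD14 count near B cells cannot show how much CD14 members carried. Ccr3 had 1 and 0 UMIs, where a count of 0 allows up to 1.43 CPM, and Il1rl1, the gene of ST2, 9 and 5.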

How the data were processed

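Single-cell RNA and TotalSeq-A antibody libraries of sorted CD45+ lung cells were made with 10x Genomics 3′ v3.1 chemistry, per the labels' protocols. The authors deposited UMI counts per gene or antibody and barcode, not normalized, and the submitters' processing notes name Cell Ranger (7.1.0, 7.0.0) and mm10; per the file headers the version was 7.0.0. No annotation of cells was used, and the sources used here do not say how barcodes were called. Of 2 matrices each was tied to its genotype by the library name in the labels.

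The UMIs of each class were added up within a library and expressed as CPM. Log2 ratios have exact conditional binomial intervals, CPM exact Poisson intervals and shares exact Clopper-Pearson intervals, all at 95% and for counting error only, and hold no spread between mice. Where a gene had 0 UMIs, 3 UMIs set the upper limit. A gene needed 50 UMIs to be called, and a list member 20. No test was run, as each genotype has 1 library. The interval code was tested on simulated data.

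Comparison classes were B cells (at least 2 of 4 genes, Cd79a, Cd79b and Ms4a1 among them), interstitial macrophages (at least 3 of 6 genes) and neutrophils (S100a8 and S100a9 at 2% or more). Ranked by whichever interval bound lay closer to 0, the first 8 and last 8 genes with at least 100 UMIs are named, without rule genes, markers of other cells, mitochondrial, ribosomal, haemoglobin, receptor segment, predicted and sex-linked genes; over inflamed neighbours 100 UMIs were asked in each library. Some items that this rule names are not reported here. Up to 3 highest, lowest and most abundant members of each described list were added. Further genes (such as Irgc1, Rgs1, Il1r2, G0s2, Apoe, and list members beyond these) were named after their values were seen. Of 30 lists, 4 symbols matched no gene: Clec7a, Ear11, Mx1 and Mx2. Members, lists and the rule were chosen with earlier results of these data known. Doublets were called with Scrublet at an expected 8%.

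The tools were R 4.3.3 with edgeR 4.0.16 (TMM factors) and DESeq2 1.42.0 (size factors), and Python 3.11.15 with scanpy 1.11.5, pandas 2.3.3, SciPy 1.17.1, NumPy 2.4.6 and matplotlib 3.10.9. Promoters are from RefSeq, GRCm38.p6, and motif letters were chosen after the data were seen.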

Additional observations from a re-analysis of the deposited data

Results flagged for a closer look

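Cell division genes differed in opposite directions between the 2 kinds of alveolar macrophage. Their median KO-labelled to WT-labelled log2 ratio was -0.56 in members and 1.38 in inflamed neighbours. The difference between the classes was not tested, and it rested on few cells in each: 13 and 7 dividing members and 9 and 8 dividing inflamed neighbours. Without each gene's 5 richest cells the members' median was -0.17, against -0.10 over all genes.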

How the results depend on the processing

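No paired analysis was possible because each genotype has 1 library and no replicate. For the same reason no library could be left out. Plaur was lower in KO-labelled members under every alternative run, from -1.76 to -1.50. Of 123 alternative values for the answers of the comparisons 90 stayed within their limits, and of 890 for named genes 885 kept their sign, as did 1071 of 1189 for list medians. Higher genes in KO-labelled members, 210, numbered 114 with cells thinned to 2000 UMIs, 120 without each gene's 5 richest cells, 136 among members with no S100a8 or S100a9 UMI (both chosen after seeing the data), 55 at 200 UMIs and 66 at 2-fold. Lower genes, 199, numbered 118, 338, 37 and 49 with thinning, without the 5 richest cells, at 200 UMIs and at 2-fold. Without the 5 richest cells the median over all genes was itself lower, -0.10 against -0.027. Genes higher than in inflamed neighbours, 139, numbered 54 with thinning, 34 with no S100a8 or S100a9 UMI, 81 with TMM, 82 with DESeq2 size factors, 56 at 200 UMIs and 14 at 2-fold; lower ones, 192, numbered 101, 66, 90 and 92 with thinning, with no S100a8 or S100a9 UMI, at 200 UMIs and at 2-fold. Thinning, higher minimums and smaller cell sets leave fewer UMIs by construction. Reversed were Ccl22 (-0.48 without doublet calls, -1.0 without the 5 richest cells), Ccl5 (-0.84 without the 5 richest cells, -2.86 with no S100a8 or S100a9 UMI) and Ccl8 (0.32 with the rule on thinned barcodes). Between the libraries, list medians changed sign for complement (0.41 to -0.16) and interstitial genes (0.75 to -0.66) without doublet calls, and for T and NK cell (1.07 to -1.64, 2 genes) and dendritic genes (0.26 to -0.31) with no S100a8 or S100a9 UMI, among others. They also reversed for cell cycle genes (0.079 thinned; over inflamed neighbours in the KO-labelled library 0.44 with the rule on thinned barcodes) and, over inflamed neighbours in the KO-labelled library, for chemokines (0.019) and interstitial genes (4.29) with no S100a8 or S100a9 UMI and dendritic genes (2.61) with the rule on thinned barcodes. The share ratio of 0.639 was 0.751 without neutrophils and 1.22 among members plus inflamed neighbours, a split that moves with depth. The CD11b difference of 0.48 was 0.25 without doublet calls, 0.64 with 4 markers, 0.36 with Cfb, Cxcl9 and Ly6i at 0, -0.100 by medians, 0.35 as raw means and 0.54 without the top 1% of members. CD14 was -0.58 by medians and -0.35 raw, CCR3 0.00 and -0.093, Ly-6C -0.15 and 0.90; ST2 gave no median ratio. The cause of these shifts was not tested. Genes with few UMIs in members, such as Plau, Ccr3 and Il1rl1, are limited by depth.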

Other observations

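Against all other kept barcodes of their library, the 12 genes that stood out most in members included Lepr, Acaa1b, Cidec, Kcnip4, Cpne5, Kcnn3, Flvcr2, Sema3e, Htr2c, Gmpr and Perp, which is a description, since the members were chosen on their transcripts. Kcnip4, a potassium channel interacting protein, was the most abundant of them at 1617 CPM in WT-labelled and 1168 CPM in KO-labelled members, against 128 and 41.6 CPM in all other cells. Htr2c, a serotonin receptor gene, stood at 354 and 239.9 CPM against 32.5 and 9.67 CPM. Acaa1b, a peroxisomal thiolase, stood at 56.0 and 49.5 CPM against 3.50 and 1.55 CPM.

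Members varied most among themselves, at 2000 UMIs per cell, in Gm42418, S100a9, Fth1, Camk1d, Chil3, Cxcl3, Lyz2, S100a8, Cd74 and Mt1. Camk1d, a calmodulin-dependent kinase, had a variance 13.5 and 9.79 times its mean, with 5 and 4 UMIs in the median member and up to 82 and 49. Cxcl3 was found in only 14.7% and 30.5% of thinned members but reached 19 and 29 UMIs in single cells. Mt1, a metallothionein, ran from a median of 1 UMI in both libraries to 32 in both. The median ratio of variance to mean over 1574 genes was 1.09 and 1.10.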
